A study of Mus musculus with 8 samples.

Results

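The genes for calcium and water channels of keratinocytes that were followed here are 10 in number: the calcium-sensing receptor Casr, the TRP channels Trpv3, Trpv4 and Trpv6, the calcium pumps Atp2a2 and Atp2c1, the store-operated entry pair Orai1 and Stim1, and the water and glycerol channels Aqp3 and Aqp9. They were taken by name, through the symbol of their Ensembl identifier, from 55416 genes in a table of RNA-seq counts, and 9 of the 10 passed the filter on low counts, which left 13147 genes for testing. The libraries came from dorsal epidermis of mice at postnatal day 4, with 4 control libraries, labelled WT (A1, B1, C1 and C6), and 4 libraries labelled as an epidermal Rora knockout (RoraEKO; A3, B4, C2 and C3). RoraEKO mice carry a floxed Rora gene, which encodes the nuclear receptor RORα, and a K14-Cre transgene. The human KRT14 promoter of that transgene drives the recombinase in basal keratinocytes and their progeny. The controls were littermates, and whether they carried floxed alleles or the transgene is not given in the sources used here. No treatment was applied, and the epidermis was lifted from back skin after brief heating.

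Rora counts over the whole gene did not separate the genotypes. They were 212 ± 66.6 CPM (counts scaled to a library total of 1000000 with TMM factors; SD, n = 4) in control and 196 ± 34.6 CPM (n = 4) in RoraEKO libraries, with a log2 fold change of -0.11 and an adjusted p of 0.877. Counts per gene do not resolve single exons, so they cannot show whether the floxed part of Rora was lost. The genotype of a library therefore rests here on its label. Library totals ran from 17286903 to 26705533 counts. Control libraries C1 and C6 held 416 and 527 CPM of Xist and no Ddx3y counts, and the other 6 libraries held at most 0.0546 CPM of Xist and 15.7 to 24.1 CPM of Ddx3y. By these genes of the X and Y chromosomes, C1 and C6 read as female and the other 6 libraries, all 4 RoraEKO libraries among them, as male. No label gives the sex. Genotype and sex are thus partly confounded, and the values of the 9 tested genes are given also without C1 and C6. Of the epidermal layers, the 6 spinous markers summed to between 45028 and 107612 CPM and the 7 granular markers to between 10559 and 16209 CPM, whereas the 7 basal markers, Krt5 and Krt14 among them, summed to only 283 to 1252 CPM. Hair shaft and follicle markers summed to 3928 to 24529 CPM in control, with A1 the highest and C6 the lowest, and to 7865 to 17946 CPM in RoraEKO libraries. Erythroid markers summed to 47.9 to 334 CPM in control and 125 to 1042 CPM in RoraEKO libraries, and adipocyte markers to 59.4 to 300 CPM, again highest in A1, and 90.2 to 159 CPM. Nearly all of the adipocyte sum was the single gene Fabp4, at 134 ± 112 CPM in control and 129 ± 29.5 CPM in RoraEKO libraries (SD, n = 4 each). Adipoq, Lep, Plin1, Cidec and Aqp7 reached at most 0.247 CPM in any library, so the sum says little about adipocytes. The marker sums of sebocytes, Langerhans cells, T cells, melanocytes and macrophages overlapped between genotypes, and those of fibroblasts, endothelial cells and skeletal muscle were at most 10.4, 3.61 and 3.79 CPM. The log2 fold changes of the 6 melanocyte markers ran from -1.18 to -0.23, and none passed the test. Among them Pmel (5.98 to 11.1 CPM in control, 2.85 to 5.55 CPM in RoraEKO libraries) and Sox10 (0.546 to 1.61 and 0.288 to 0.499 CPM) did not overlap.

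Keratinocytes live in a calcium gradient that is low around basal cells and rises towards the granular layer, and a rise in calcium is the classic trigger of their differentiation. The cell reads calcium outside it through the calcium-sensing receptor, admits it through TRP channels and through ORAI channels in the plasma membrane, which open when STIM1 senses that the endoplasmic reticulum is empty, and refills its stores with the pumps of the endoplasmic reticulum (SERCA2, from Atp2a2) and the Golgi (SPCA1, from Atp2c1). Inherited faults in human ATP2A2 and ATP2C1 cause the blistering disorders Darier disease and Hailey-Hailey disease. AQP3 is the main water and glycerol channel of the epidermis and is found mostly in its basal and spinous layers, and glycerol carried by it helps the stratum corneum to hold water.

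The letters before the transcription start were read for the genes, since RORα binds single copies of a short DNA half-site next to an A/T-rich stretch. RefSeq promoter sequences (table build GRCm38.p6) were found for 9 of the 10 genes, as 11 windows of 250 bases upstream of a start site, and all 11 matched the GRCm39 genome exactly and in 1 place. The half-site letters AGGTCA or GGGTCA, on either strand, were present in the windows of Trpv6 and Atp2c1, so in 2 of the 11 windows, and in 23.8% of all 32851 mouse promoter windows of this length. With a T directly before the half-site, the letters were in none of the 11 windows and in 5.38% of all windows. The window of Aqp3 is shown because Aqp3 was the only one of the genes past both cutoffs, and that of Trpv6 because it alone held 2 half-sites. The capitals in Aqp3 mark TATAAA, the core of a TATA box, which starts 29 bases upstream of the start site and whose letters occur on either strand in 12.4% of all windows. The capitals in Trpv6 mark the half-sites, 191 bases upstream (read on the other strand) and 165 bases upstream.
Aqp3, chr4:41098184-41098433, minus strand, GRCm39: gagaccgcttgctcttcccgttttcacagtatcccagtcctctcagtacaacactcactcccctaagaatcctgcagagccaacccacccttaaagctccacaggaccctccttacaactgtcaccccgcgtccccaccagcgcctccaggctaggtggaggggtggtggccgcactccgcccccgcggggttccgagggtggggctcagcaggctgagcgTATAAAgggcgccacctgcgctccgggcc
Trpv6, chr6:41613340-41613589, minus strand, GRCm39: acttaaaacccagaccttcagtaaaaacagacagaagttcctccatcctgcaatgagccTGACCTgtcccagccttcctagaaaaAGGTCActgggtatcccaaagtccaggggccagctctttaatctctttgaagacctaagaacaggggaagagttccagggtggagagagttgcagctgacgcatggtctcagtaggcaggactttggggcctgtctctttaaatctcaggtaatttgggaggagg
A match of letters is a description of the window and not a binding site. The single half-site match of Atp2c1 lay 80 bases upstream of the first of its 2 start sites.

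Water channels. Aqp3 rose in RoraEKO epidermis and was the only gene of the 10 past both cutoffs (an adjusted p under 0.05 and a fold change over 1.5). Its gene (ENSMUSG00000028435) lies at chr4:41092722-41098183 on the minus strand. Control libraries A1, B1, C1 and C6 held 121, 160, 167 and 130 CPM of Aqp3, and RoraEKO libraries A3, B4, C2 and C3 held 240, 220, 233 and 241 CPM. Every RoraEKO library lay above every control library, and the RoraEKO libraries were closer to each other than the controls were. The means were 145 ± 22.1 and 234 ± 9.73 CPM (SD, n = 4 each), and the log2 fold change of Aqp3 was 0.69 ± 0.116 (SE), a 1.62-fold difference, with an adjusted p of 0.0155 in edgeR's quasi-likelihood test with Benjamini-Hochberg adjustment over all genes tested. Among the libraries that share the first letter of their title, the log2 CPM of Aqp3 was higher in RoraEKO by 0.99 for letter A, 0.46 for letter B and 0.68 for letter C. The fold change of Aqp3 stayed between 0.62 and 0.78 on the log2 scale in 20 alternative fits, and its call held in 16 of them. The call was lost, by adjusted p, with scaling by library size alone (0.0565), with Xist as a covariate (0.0566), without controls C1 and C6 (0.0671) and without RoraEKO library C3 (0.0536).

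Some markers of the differentiated layers were higher together with Aqp3 in RoraEKO libraries, though none passed the test. The spinous markers summed to 45028 to 70981 CPM in control and 86356 to 107612 CPM in RoraEKO libraries, without overlap, and Krt1 and Krt10, the suprabasal keratins, made up most of it. Krt1 had a log2 fold change of 0.70 and an adjusted p of 0.287, and Krt10 of 0.66 and 0.274. The other 4 spinous markers went in both directions, with log2 fold changes of -0.34 for Krtdap, -0.045 for Sbsn, 0.016 for Dsg1a and 0.37 for Dsc1. The 7 granular markers summed to overlapping ranges, 10559 to 14247 CPM in control and 12349 to 16209 CPM in RoraEKO libraries. Of these, Tgm1, a transglutaminase of the cornified envelope, had a log2 fold change of 0.70 and an adjusted p of 0.0578, and Casp14, a protease that processes filaggrin, of 0.64 and 0.0717, both without overlap of the genotypes. Tgm3, a second transglutaminase, had a log2 fold change of 0.46 and an adjusted p of 0.294, also without overlap. Cdsn had 0.27 and 0.802, with overlap. Flg, Loricrin and Ivl had log2 fold changes of 0.014, -0.20 and -0.41. The basal markers, which mark the layer where AQP3 is abundant, summed to 283 to 633 CPM in control and 304 to 1252 CPM in RoraEKO libraries, which overlapped. The upper end was RoraEKO library B4 alone, and the other 3 RoraEKO libraries reached at most 413 CPM. None of the 7 passed the test and they went in both directions. Krt14 had a log2 fold change of 1.12 (adjusted p 0.382), Krt5 of -0.22 (0.918), Col17a1 of -0.60 (0.67), Itgb4 of -0.45 (0.75), Itga6 of -0.26 (0.782) and Trp63 of 0.078 (0.894). Krt15 was 95.6 to 126 CPM in control and 55.4 to 93.9 CPM in RoraEKO libraries, without overlap, with a log2 fold change of -0.57 and an adjusted p of 0.0884. The part of these markers in the Aqp3 result was not tested. In bulk tissue, fewer cells of a type and less RNA per cell cannot be told apart.

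Aqp9 encodes an aquaglyceroporin that also passes urea and other small solutes and is best known from liver and white blood cells. It was 20.3, 28.9, 19.6 and 33.7 CPM in the control libraries and 19.8, 22.6, 25.9 and 21.4 CPM in the RoraEKO libraries. The genotypes overlapped, and the controls spread more widely. The log2 fold change of Aqp9 was -0.19 ± 0.208 (SE) with an adjusted p of 0.692. It rested on single libraries, being -0.0047 without control C6, -0.0835 without RoraEKO A3, -0.29 without control A1 and -0.30 without control C1. The 8 neutrophil markers summed to 4.88 to 20.3 CPM in control and 16.1 to 71.3 CPM in RoraEKO libraries. Elane was at 0 in all 8 libraries, and Ly6g and Retnlg had at most 3 counts in any. Mpo reached 0.193 CPM, Csf3r 0.964 CPM and Cxcr2 0.578 CPM, all in RoraEKO libraries, against at most 0, 0.305 and 0.563 CPM in control libraries. S100a8 was 8.47 CPM in control and 9.16 CPM in RoraEKO libraries on average. S100a9, which stressed keratinocytes also make, was 2.38 ± 1.56 and 21.2 ± 26.7 CPM (SD, n = 4 each), with an adjusted p of 0.061. The part of these markers in the Aqp9 values was not tested.

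The other aquaporins were low. Of 10 further aquaporin genes none passed the filter on low counts, and Mip, Aqp2, Aqp6 and Aqp8 had no count in any library. Where a library has no count, the limit is 3 counts, which corresponded to between 0.113 and 0.196 CPM depending on depth and covers counting error only. Aqp5, the channel of sweat and salivary glands, reached 0.381 CPM in control and 1.78 CPM in RoraEKO libraries and was too low to test. Its 43 and 37 counts in RoraEKO B4 and C2 stood apart from the other 6 libraries, which held 2 to 10. Aqp4 had 17 counts (0.819 CPM) in RoraEKO C2 and none elsewhere. Aqp5 was the highest of these per kilobase in RoraEKO libraries, and Aqp12 was in control libraries.

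**Figure D1:**
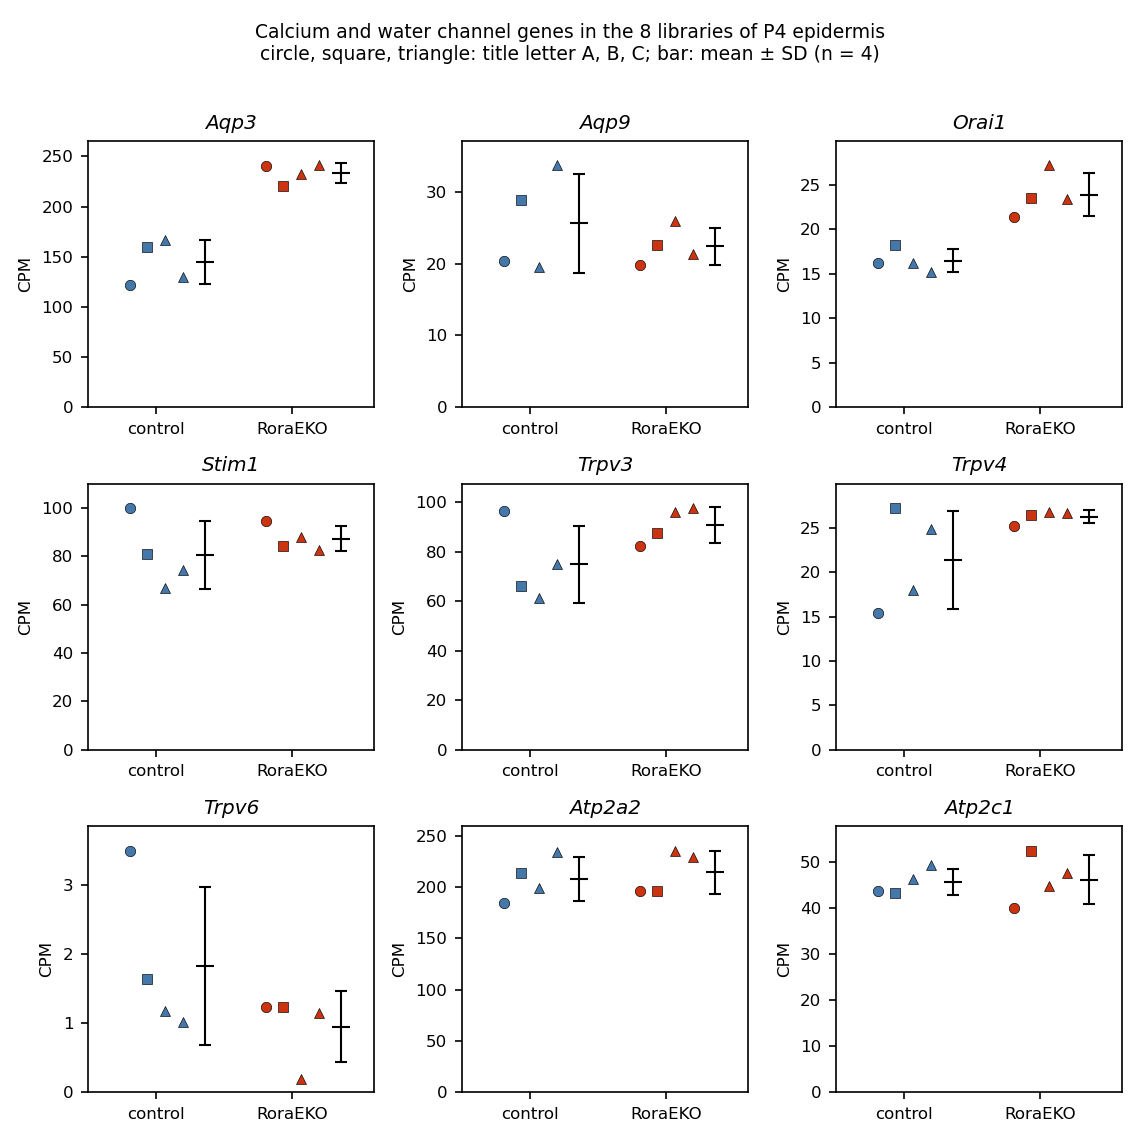
CPM of the 9 tested genes in each of the 8 libraries (blue, control; red, RoraEKO), with the mean ± SD of the 4 libraries at the right of each group and linear axes from 0. Aqp3 and Orai1 show no overlap between genotypes, and for the other 7 genes the points of the genotypes overlap.

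Store-operated entry. Orai1 encodes the pore of the calcium release-activated channel (ENSMUSG00000049686, chr5:123153043-123168535, plus strand). It was 16.3, 18.2, 16.2 and 15.2 CPM in the control libraries and 21.3, 23.5, 27.2 and 23.4 CPM in the RoraEKO libraries. The genotypes did not overlap. Means were 16.5 ± 1.26 and 23.9 ± 2.43 CPM (SD, n = 4 each), and the log2 fold change of Orai1 was 0.54 ± 0.0899 (SE), or 1.45-fold. With edgeR's quasi-likelihood test the adjusted p of Orai1 was 0.0278, under the p cutoff, but the fold change was under the cutoff of 1.5, so Orai1 was not called. The difference in log2 CPM had the same sign for each title letter, at 0.39, 0.37 and 0.68 for A, B and C. Its adjusted p was under the cutoff in 11 of 20 alternatives and ran from 0.000855 to 0.148. Both cutoffs were passed in 2 of the 20, with all genes of at least 1 count kept and without RoraEKO library A3.

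Stim1, the calcium sensor of the endoplasmic reticulum that opens ORAI1 (ENSMUSG00000030987, chr7:101916979-102086526, plus strand), was 99.9, 81.0, 66.9 and 74.1 CPM in control and 94.4, 84.2, 87.8 and 82.6 CPM in RoraEKO libraries. The 4 RoraEKO values lay inside the range of the controls. The log2 fold change of Stim1 was 0.12 ± 0.13 (SE), with an adjusted p of 0.749. Control library A1 held the highest Stim1 value, and without it the log2 fold change was 0.24. It was 0.038 without control C1 and 0.18 without RoraEKO C2.

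None of 7 other genes of store-operated entry was past the cutoffs, all 7 being tested, with 3 log2 fold changes above 0 and 4 below. Saraf, which turns the channel off and was the highest of them per kilobase, was 63.1 ± 2.44 and 65.3 ± 5.45 CPM. Stim2, the second sensor, was 35.9 ± 6.42 and 42.1 ± 5.53 CPM with a log2 fold change of 0.23 and an adjusted p of 0.504. The other pore genes were low, with Orai2 at 4.6 ± 2.45 and 3.78 ± 1.13 CPM and Orai3 at 3.54 ± 0.747 and 3.58 ± 0.878 CPM (SD, n = 4 for each genotype). Cracr2b, an Orai1 regulator, had a log2 fold change of -0.91 and an adjusted p of 0.154.

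TRP channels. None of the 3 TRPV genes passed the cutoffs. Trpv3, a warmth-gated channel of keratinocytes (ENSMUSG00000043029, chr11:73158214-73191193, plus strand), was 96.5, 66.3, 61.4 and 75.1 CPM in control and 82.2, 87.7, 96.0 and 97.6 CPM in RoraEKO libraries. Apart from control A1, all controls lay below all RoraEKO libraries. The log2 fold change of Trpv3 was 0.28 ± 0.154 (SE) with an adjusted p of 0.389, and the difference was -0.23 for title letter A, 0.40 for B and 0.51 for C. Without control library A1, in which hair markers were highest, it was 0.43 with an adjusted p of 0.0663, and the part of those markers was not tested.

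Trpv4, which opens with swelling, warmth and lipid messengers (ENSMUSG00000014158, chr5:114760209-114796914, minus strand), was 15.5, 27.3, 18.0 and 24.8 CPM in control libraries. In RoraEKO libraries it was 25.3, 26.4, 26.8 and 26.7 CPM. The RoraEKO values were close together, with an SD of 0.712 against 5.57 CPM in the controls, and lay within the control range. The log2 fold change of Trpv4 was 0.30 ± 0.193 (SE) with an adjusted p of 0.438. It was 0.17 without control A1, 0.40 without control C6 and 0.44 without control B1.

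Trpv6, an epithelial calcium entry channel under the control of vitamin D in the gut (ENSMUSG00000029868, chr6:41597558-41613343, minus strand), was low, and close to the limit of 3 counts in RoraEKO library C2 only. Its 92, 30, 25 and 27 counts in control libraries gave 3.50, 1.64, 1.18 and 1.01 CPM, and its 19, 30, 4 and 23 counts in RoraEKO libraries gave 1.24, 1.23, 0.193 and 1.15 CPM. Control A1 stood above and RoraEKO C2 below the other 6 libraries, which lay between 1.01 and 1.64 CPM. Trpv6 had a log2 fold change of -0.95 ± 0.665 (SE) with an adjusted p of 0.441, and that log2 fold change was -0.42 without control library A1 and -0.54 without RoraEKO library C2. Its end overlaps Ephb6 on the opposite strand, a gene with 157 CPM in control and 240 CPM in RoraEKO libraries, and as the strand setting of the counting is not given, reads of both cannot be told apart there.

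Of 17 other TRP and mechanosensitive channel genes, 6 were tested and none was past the cutoffs, with 5 log2 fold changes above 0 and 1 below. Piezo1, a channel opened by membrane stretch and the highest per kilobase, was 90.1 ± 18.3 and 95.4 ± 20.4 CPM (SD, n = 4 each). Trpm4, which is opened by calcium inside the cell, was 33.5 ± 5.12 and 38.7 ± 7.44 CPM, and Trpm7, a channel and kinase, was 19.8 ± 3.85 and 20.8 ± 4.19 CPM. Trpm6, a magnesium channel, had the largest log2 fold change of the tested genes of this list, 0.83, at 0.321 and 0.601 CPM and with an adjusted p of 0.467. Trpv5 and Trpa1 had no count in any library, and Trpv1, the capsaicin receptor, had at most 0.45 CPM.

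**Figure D2:**
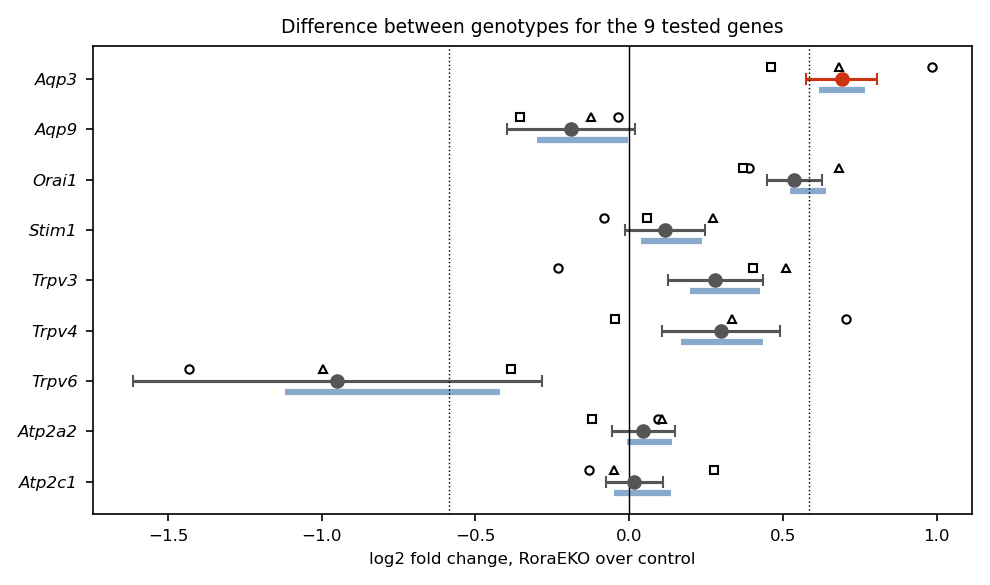
Log2 fold change of RoraEKO over control for the 9 tested genes, with the fitted value ± SE (filled point; red where past both cutoffs), the range when each library in turn was left out (blue bar) and the differences within title letters A, B and C (open circle, square, triangle); dotted lines mark a fold change of 1.5. Aqp3 at 0.69 is the only fitted value past the dotted line that passed the test, Orai1 at 0.54 stops short of it, and Trpv6 at -0.95 has the widest error.

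Calcium pumps. Neither pump gene passed the test, and the genotypes overlapped in both. Atp2a2 (ENSMUSG00000029467, chr5:122591575-122640903, minus strand) was 184, 214, 199 and 234 CPM in control and 196, 196, 235 and 230 CPM in RoraEKO libraries. Its log2 fold change was 0.046 ± 0.102 (SE), with an adjusted p of 0.918. Atp2c1 (ENSMUSG00000032570, chr9:105280738-105404518, minus strand) was 43.7, 43.3, 46.2 and 49.3 CPM in control and 39.9, 52.4, 44.7 and 47.5 CPM in RoraEKO libraries. The log2 fold change of Atp2c1 was 0.016 ± 0.0924 (SE), with an adjusted p of 0.972. The sign of these small values depended on the scaling, being negative for Atp2a2 (-0.0098) and Atp2c1 (-0.028) with library size alone. Atp2a2 overlaps Anapc7 (16.1 and 16.8 CPM) and Atp2c1 overlaps Aste1 (2.64 and 2.37 CPM), both on the opposite strand.

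Among 13 other calcium pumps and exchangers, 7 were tested, none was past the cutoffs, and 3 log2 fold changes were above 0 and 4 below. Atp2b4, a plasma membrane calcium pump and the highest of them per kilobase, was 167 ± 26.9 CPM in control and 122 ± 17.5 CPM in RoraEKO libraries (SD, n = 4 each), with a log2 fold change of -0.45 and an adjusted p of 0.159. Tmem165, a Golgi calcium and manganese transporter, was 53.7 ± 7.02 and 67.1 ± 5.07 CPM with an adjusted p of 0.193. Slc8b1, the mitochondrial sodium-calcium exchanger, was 15.8 ± 2.21 and 20.3 ± 2.99 CPM with an adjusted p of 0.224, and Tmco1, a calcium-leak channel of the endoplasmic reticulum, was 22.3 ± 1.35 and 20.6 ± 0.599 CPM. Atp2b1, another plasma membrane pump, was 15.7 ± 4.25 and 20 ± 5.06 CPM, and Atp2c2, the second Golgi pump, was 29.2 ± 4.68 and 28 ± 3.07 CPM.

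Calcium sensing. Casr (ENSMUSG00000051980, chr16:36310949-36382503, minus strand) was not detectable at this depth: control library B1 held 1 count and the other 7 libraries held none. It did not enter the test and no fold change is given. Its signalling partners were measured, with 9 of 10 tested, none past the cutoffs, and 5 log2 fold changes above 0 and 4 below. Plcd1, a phospholipase C of skin, was 46.4 ± 5.35 CPM in control and 63.6 ± 8.47 CPM in RoraEKO libraries (SD, n = 4 each), without overlap, with a log2 fold change of 0.45 and an adjusted p of 0.0822. Plcg1, the phospholipase C downstream of the receptor in keratinocytes, was 102 ± 9.4 and 97.1 ± 7.65 CPM. Per kilobase Plcg1 was the highest of them in control libraries, at 11.4 CPM against 10.7 CPM for Plcd1, and Plcd1 in RoraEKO libraries, at 14.6 CPM against 10.9 CPM for Plcg1. Flna, the filamin that anchors the receptor, was 38.2 ± 7.57 and 50.3 ± 7.99 CPM with an adjusted p of 0.249, and Plcb3, another phospholipase C, was 60.5 ± 6.28 and 73.5 ± 10.5 CPM with an adjusted p of 0.312. The G protein genes Gnaq and Gna11 had log2 fold changes of -0.49 (adjusted p 0.324) and -0.11 (adjusted p 0.691).

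Across the 10 genes, then, 1 of 9 tested was past both cutoffs, in the higher direction, and none in the lower. Over all genes tested, 725 of 13147, or 5.51%, were past them, with 302 higher (2.3%) and 423 lower (3.22%). An adjusted p under 0.05 at any fold was reached by 2 of the 9, Aqp3 and Orai1, beside 6.03% of all genes tested. These were also the 2 genes whose genotypes did not overlap, against 12.9% of all genes tested. With so few genes, a count of 1 or 2 stands near these shares. Of the 9 log2 fold changes, 7 were above 0 and 2 below, with a median of 0.12, and the median over all genes tested was -0.043. Without control libraries C1 and C6 none of the 9 was past the cutoffs. Aqp3 then had a log2 fold change of 0.78 (adjusted p 0.0671) and Orai1 of 0.52 (0.146), so both lost the adjusted p under 0.05. The value was -0.082 for Aqp9, 0.00098 for Stim1, 0.21 for Trpv3, 0.35 for Trpv4, -1.38 for Trpv6, 0.16 for Atp2a2 and 0.14 for Atp2c1, with adjusted p-values from 0.327 to 0.998.

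The level of the genes was compared per kilobase of merged exons, over the 4 libraries of a genotype. In control epidermis Aqp3 stood first at 79.0 ± 12.1 CPM per kilobase (SD, n = 4). Atp2a2 followed at 17 ± 1.75 and Trpv3 at 12.8 ± 2.66 CPM per kilobase, and the ranges of these 2 overlapped. Stim1 at 7.73 ± 1.36 and Orai1 at 6.29 ± 0.483 CPM per kilobase overlapped too, as did Aqp9 at 3.86 ± 1.03, Trpv4 at 3.62 ± 0.943 and Atp2c1 at 3.54 ± 0.213 CPM per kilobase, neighbour by neighbour. Trpv6 was ninth at 0.466 ± 0.29 and Casr last at 0.00167 CPM per kilobase. In RoraEKO epidermis Aqp3 stood first at 128 ± 5.32 CPM per kilobase, and the order of Orai1 (9.12 ± 0.927) and Stim1 (8.39 ± 0.5) was the other way round, with ranges that overlapped. Aqp9, sixth in control, was eighth in RoraEKO libraries at 3.38 ± 0.389 CPM per kilobase, after Trpv4 (4.45 ± 0.12) and Atp2c1 (3.58 ± 0.405), and its range overlapped that of Atp2c1. With the longest annotated transcript as the length, 6 of the 10 genes kept their rank in control and 5 in RoraEKO libraries, Aqp3 and Atp2a2 staying first and second in both. Stim1 then stood above Orai1 in both genotypes, at 18.1 against 7.95 CPM per kilobase in control and 19.6 against 11.5 CPM per kilobase in RoraEKO libraries, so the change of order of these 2 genes depended on the length used. The same held for Aqp9, which had rank 8 in both genotypes with that length.

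**Figure D3:**
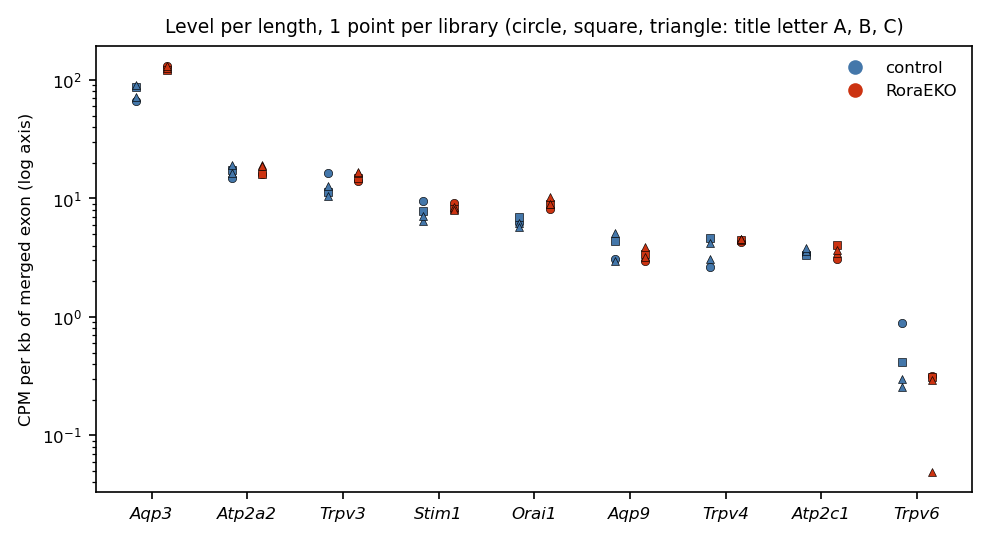
CPM per kilobase of merged exons for the 9 tested genes on a log axis, 1 point per library (blue, control; red, RoraEKO), ordered by the mean of the control libraries. Aqp3 lies above all other genes, at 79.0 in control and 128 in RoraEKO libraries on average, and Trpv6 lies below 1 in every library.

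The genes whose log2 CPM followed Aqp3 most closely over the 8 libraries were Cyp2b10 (Pearson's r = 0.99), Cstdc6 (r = 0.96) and Gpx1 (r = 0.96). These values describe 8 libraries of 2 genotypes that differ in Aqp3 itself, so they hold the difference between genotypes. Cyp2b10, a cytochrome P450, was 34.9 ± 7.94 CPM in control and 69.4 ± 3.54 CPM in RoraEKO libraries (SD, n = 4 each). It was past both cutoffs, with an adjusted p of 0.00673. Cstdc6, a stefin-like cysteine protease inhibitor gene, rose from 3.62 ± 1.61 to 11.5 ± 0.357 CPM with an adjusted p of 0.00652. Gpx1, a glutathione peroxidase, was 152 ± 23.2 and 210 ± 10.2 CPM and was not past the cutoffs, with an adjusted p of 0.0827.

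Downstream of calcium entry the calmodulins are the main calcium-binding relays of the cell, and keratinocytes add the skin-type calmodulin-like genes Calm4, Calm5 and Calml3. Of 12 genes of calmodulin, calbindin and vitamin D, 8 were tested, none rose and 2 fell, Calm2 and Calm5, beside 2.3% higher and 3.22% lower over all genes tested. Calm2 was 132, 150, 116 and 238 CPM in control and 51.9, 37.0, 66.2 and 64.2 CPM in RoraEKO libraries. All RoraEKO values lay below all controls, and control C6 was the highest. The means were 159 ± 54.5 and 54.8 ± 13.4 CPM (SD, n = 4 each), and Calm2 had a log2 fold change of -1.54 ± 0.297 (SE) with an adjusted p of 0.00778. Its call held in 20 of 20 alternatives, with log2 fold changes from -1.66 to -1.25.

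Calm5 was 46.2, 58.4, 71.2 and 55.4 CPM in control and 36.0, 34.4, 40.5 and 36.6 CPM in RoraEKO libraries, again without overlap. Its log2 fold change was -0.65 ± 0.138 (SE), with an adjusted p of 0.0257. The call of Calm5 held in 11 of 20 alternatives and in only 1 of the 8 fits without a single library, that without control A1, and without controls C1 and C6 the log2 fold change was -0.45 and the adjusted p 0.185. Calml3 was 756 ± 76.8 and 513 ± 77.5 CPM, without overlap, with a log2 fold change of -0.56 and an adjusted p of 0.0752.

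Calm3 was 33.5 ± 4.32 and 30.8 ± 4.86 CPM and did not pass the test. Calm2 and Calm3 encode the same protein, and reads that fit more than 1 calmodulin gene were shared out by the authors' counting, so their split is uncertain. Calm4, the highest of the list per kilobase, was 4263 ± 360 CPM in control and 4658 ± 867 CPM in RoraEKO libraries (SD, n = 4 each). Vdr, the vitamin D receptor, was 58.4 ± 17.2 and 78.8 ± 10.4 CPM with an adjusted p of 0.28. The vitamin D target S100g, a calbindin, reached 0.0947 CPM at most.

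**Figure D4:**
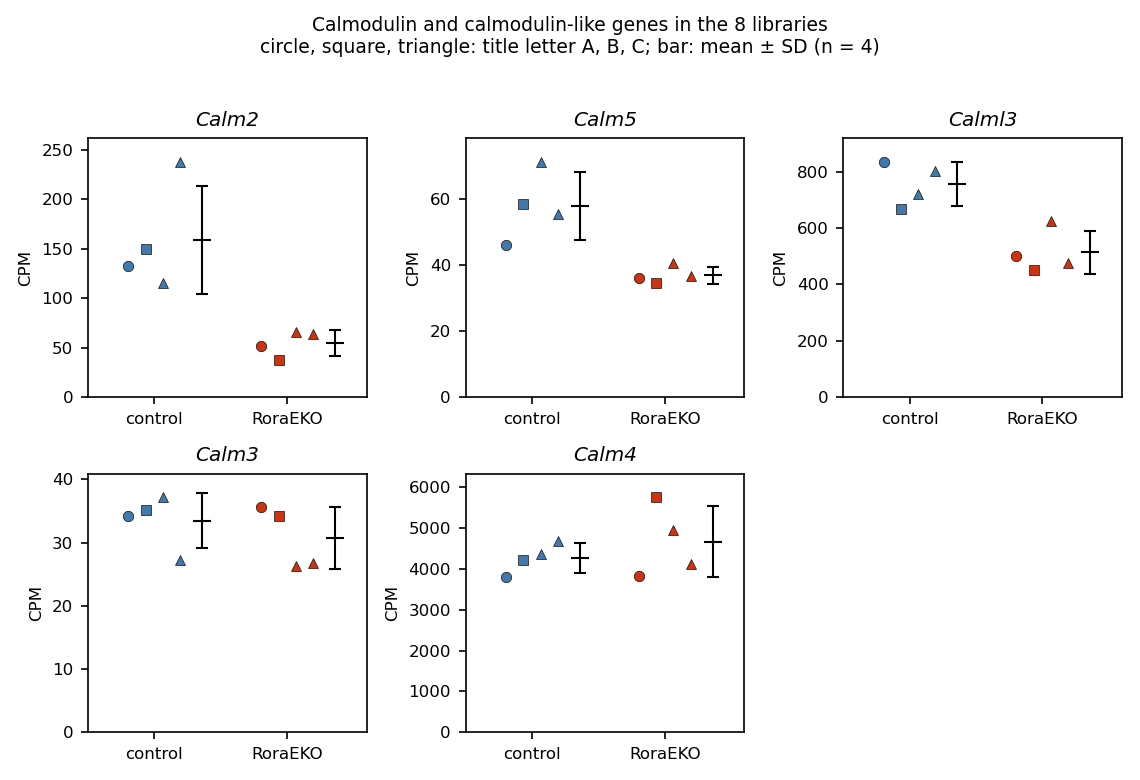
CPM of 5 calmodulin and calmodulin-like genes in each library (blue, control; red, RoraEKO; circle, square and triangle for title letters A, B and C), with the mean ± SD of 4 libraries at the right of each group and linear axes from 0. In Calm2, Calm5 and Calml3 the RoraEKO points lie below all control points, and in Calm3 and Calm4 the genotypes overlap.

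The remaining lists held no gene past the cutoffs. Of 6 release channels of the endoplasmic reticulum, 4 were tested, with 3 log2 fold changes above 0 and 1 below. Itpr2, an inositol trisphosphate receptor, was 93.7 ± 8.98 and 112 ± 7.16 CPM, without overlap and with an adjusted p of 0.26, and Itpr3, the highest per kilobase, was 173 ± 37.2 and 142 ± 22.2 CPM with an adjusted p of 0.491. Of 6 genes of the mitochondrial calcium uniporter, 5 were tested, 1 with a log2 fold change above 0 and 4 below. Smdt1, a small subunit and the highest per kilobase, was 64.1 ± 12.5 and 56.2 ± 5.04 CPM (SD, n = 4 each).

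Glycerol that enters through AQP3 is phosphorylated by glycerol kinase, and all 4 genes of glycerol handling were tested, 2 with a log2 fold change above 0 and 2 below. Gk, glycerol kinase, was 12.5 ± 5.03 and 18.4 ± 5.05 CPM, with a log2 fold change of 0.56 and an adjusted p of 0.372. Gpd2, the mitochondrial glycerol phosphate dehydrogenase, was 2.11 ± 0.879 and 2.47 ± 0.622 CPM. Over the 85 related genes of all lists, 50 were tested, of which none was higher and 2 were lower past the cutoffs, beside 2.3% and 3.22% of all genes tested, and the median log2 fold change was 0.008.

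**Figure D5:**
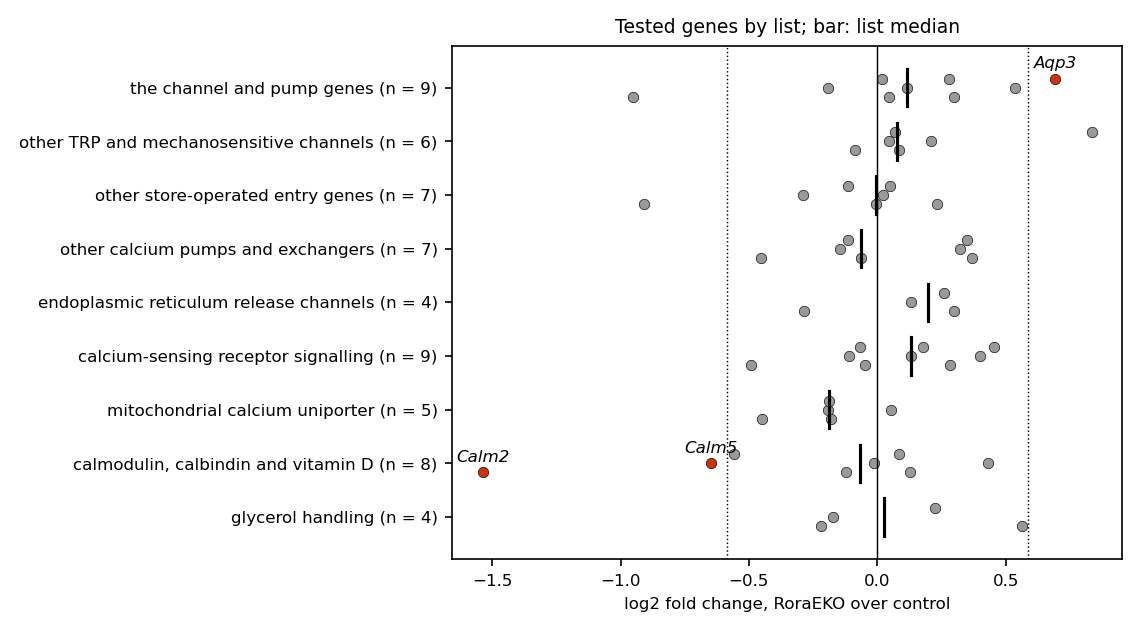
Log2 fold change of RoraEKO over control for each tested gene of the channel and pump genes (top) and of the related lists, with the median of each list as a bar and a fold change of 1.5 as dotted lines; red points are past both cutoffs. Aqp3 is the single red point to the right, and Calm2 and Calm5 are the red points to the left.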

How the data were processed

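Paired reads of stranded poly(A) libraries were trimmed with Skewer, mapped to GRCm39 with STAR 2.5.3a and counted with RSEM by the authors, who deposited expected counts per Ensembl gene for 8 libraries, with no scaling. The annotation release and the strand setting of the counting are not given in the sources used here. Expected counts were rounded to whole numbers. Symbols and coordinates came from GENCODE M39, which named 54749 of 55416 genes. In R 4.3.3, genes were filtered with filterByExpr (minimum count 10), scaled by TMM and given to edgeR 4.0.16 for its quasi-likelihood test with genotype as the single term (the authors used edgeR 3.28.0). A gene was called at p under 0.05 after Benjamini-Hochberg adjustment and a change of over 1.5-fold. SEs beside log2 fold changes were computed from library log2 CPM values at a prior count of 2. The scripts were tested on simulated data. CPM per kilobase used merged exons. The study gives 4 mice per genotype, and the labels do not tie single libraries to animals, so p-values measure the spread between these libraries. First letters of the titles were used to form strata, although no label gives their meaning.

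The genes and lists were chosen with earlier results of these data known. Named were all 10 genes, Rora, Xist and Ddx3y, related genes past the cutoffs, those highest per kilobase and some of up to 6 more of each list by adjusted p, and the 3 genes most correlated with a gene past the cutoffs. Some genes of the lists are not reported here. Genes too low to test and marker genes fall outside this rule and were named after their values were seen. The 15 marker lists, of which none held a gene past the cutoffs, were basal, spinous and granular keratinocytes, hair follicle, sebocytes, fibroblasts, neutrophils, macrophages, Langerhans cells, T cells, melanocytes, skeletal muscle, adipocytes, endothelial and erythroid cells. Alternatives were DESeq2 1.42.0, scaling by RLE or by totals only, edgeR's likelihood ratio, exact, robust and non-legacy tests, other filters, a block for the title letter, Xist as a covariate, other prior counts, transcript length and libraries left out.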

Additional observations from a re-analysis of the deposited data

Results flagged for a closer look

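Trpv6 in RoraEKO library C2, at 0.193 CPM or 4 counts, stood far from the other 3 RoraEKO libraries, which held 1.15 to 1.24 CPM. Its gap to the nearest of them was 0.913 of the whole range of the group, above the critical value of Dixon's test for 4 samples. Of 22 groups of 4 libraries examined this was the only one past that value, and chance alone passes about 1 in 20 groups. Without library C2 the log2 fold change of Trpv6 was -0.54, with an adjusted p of 0.709.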

How the results depend on the processing

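The Aqp3, Calm2 and Orai1 differences kept their direction in 20 of 20 alternatives. The number of the 10 genes past the cutoffs, 1 as reported, was 0 with library size alone, 0 with Xist as a covariate, 0 without controls C1 and C6, 2 with all genes of at least 1 count, 2 with no fold change cutoff, and 0 to 2 when each library in turn was left out (0 without RoraEKO C3, 2 without RoraEKO A3). The number of related genes past the cutoffs, 2 as reported, was 1 with Xist as a covariate, 1 without controls C1 and C6, and 1 to 3 with single libraries left out. Over all genes tested, 725 as reported, it was 472 with Xist as a covariate, 314 without controls C1 and C6, and 457 to 896 with single libraries left out (457 without control B1, 475 without RoraEKO C3). The causes of these shifts were not tested, and fits with fewer libraries have less to test with. The small log2 fold changes of the pumps turned sign, Atp2a2 to -0.0098 and Atp2c1 to -0.028 with library size alone, and with single libraries left out they ran from -0.0085 to 0.14 and from -0.051 to 0.14. Stim1 was -0.061 with Xist as a covariate. The titles share no replicate number between genotypes but do share first letters, of unknown meaning. A block for the title letter left the number of channel and pump genes past the cutoffs at 1 and of related genes at 2, and gave 999 genes in all. With the longest transcript as length, 6 genes in control and 5 in RoraEKO libraries kept their rank. Counts limited Casr, Trpv6 and the other aquaporins.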
